A study of Mus musculus with 96 samples.

Results

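Pancreatic acinar cells, the digestive enzyme factory of the pancreas, surround the islets, and some of their RNA is carried along when islets are isolated. The 31 genes described here are acinar proteases, fat-digesting enzymes, other granule and membrane proteins, and transcription factors of acinar identity. They were chosen by symbol from a fixed list, and all 31 were found among the 20155 genes with values in the expression table, which lists 21990 genes. Amylases and Reg genes were not members. The list holds 14 proteases, 6 proteins of fat digestion, 7 other secreted or membrane proteins and 4 transcription factors.

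Islets and liver came from 48 C57BL/6N male mice bought at 4 weeks of age. They received a chow diet with 13.5% fat (CD) or a high-fat diet with 60% fat (HFD) for 4, 8, 12, 16, 20 or 24 weeks, with 4 mice per diet and week and no genetic change in either group. The islets were released with collagenase P, enriched on a Histopaque gradient and picked by hand to reduce acinar cells, and the submitters judged purity by Amy1a and Krt19. Each mouse gave 1 islet and 1 liver library, so 48 islet and 48 liver libraries were compared over separate mice. Week of diet also carries the age of the mice and the day of collection, and these cannot be told apart. Values are FPKM, fragments per kilobase of transcript per 1000000 mapped fragments. Read counts are not part of the table, and the depth behind a single value is therefore unknown.

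Acinar cells make most digestive enzymes as inactive precursors, store them in zymogen granules and release them toward the intestine. Trypsinogen is activated to trypsin, which then activates the chymotrypsinogens, proelastases and procarboxypeptidases. Their genes are switched on by the PTF1 complex, in which PTF1A pairs with an E protein and RBPJL, together with NR5A2, while BHLHA15 (also called MIST1) shapes the secretory apparatus.

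Acinar RNA was found in all islet libraries. Of the 31 genes, 27 reached 1 FPKM in each of the 48 islet libraries, 18 had a median of at least 100 FPKM and 8 a median of at least 1000 FPKM. The chymotrypsinogen Ctrb1 was the most abundant, with a lowest, median and highest value of 838, 4082 and 19310 FPKM. Among the other proteases, the medians were 2575 FPKM for the elastase Cela2a, 2017 FPKM for the trypsinogen Prss2, 1042 FPKM for the trypsinogen Try4 and 1027 FPKM for the carboxypeptidase Cpa1. The lowest, median and highest values were 201, 949 and 6090 FPKM for the carboxypeptidase Cpb1, 244, 1077 and 6387 FPKM for the elastase Cela3b, 147, 716 and 4662 FPKM for the chymotrypsin-like Ctrl and 3.11, 17.5 and 115 FPKM for the trypsinogen Try10. Pancreatic lipase (Pnlip), which cuts triglycerides, led the fat-digesting group at 287, 1356 and 9733 FPKM. Cel, the bile salt-dependent lipase, had 181, 826 and 5826 FPKM, and the lipase-related Pnliprp1 129, 652 and 3957 FPKM. The ribonuclease Rnase1 (133, 607 and 3411 FPKM) led the other secreted proteins, followed by syncollin (Sycn), a protein of the zymogen granule membrane, with a median of 561 FPKM. The factors were low. Bhlha15 ranged from 14.2 to 40.3 FPKM, Rbpjl from 0.46 to 5.52, Ptf1a from 0.08 to 3.32 and Nr5a2 had a median of 0.50 FPKM.

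The 31 genes together took between 0.411% and 13.1% of the FPKM of an islet library, with a median of 2.02%. At week 12 the CD libraries held 5.69%, 6.53%, 8.88% and 13.1%, and the HFD libraries 0.925%, 2.83%, 2.98% and 4.48%. At week 16 the CD libraries held 2.65%, 3.62%, 4.89% and 5.05%, against 0.537%, 1.24%, 1.75% and 1.77% on HFD. The diets did not overlap at these weeks, and CD was higher. At week 20 the order was the other way, with 0.633%, 1.24%, 1.42% and 1.81% on CD and 1.43%, 2.35%, 2.50% and 3.91% on HFD, which overlapped. In such bulk samples, fewer acinar cells and less RNA per acinar cell cannot be told apart. A single library, mouse CD304 of week 12, held the highest value of 25 of the 31 genes, and HFD211 of week 8 held the lowest value of 19.

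**Figure D1:**
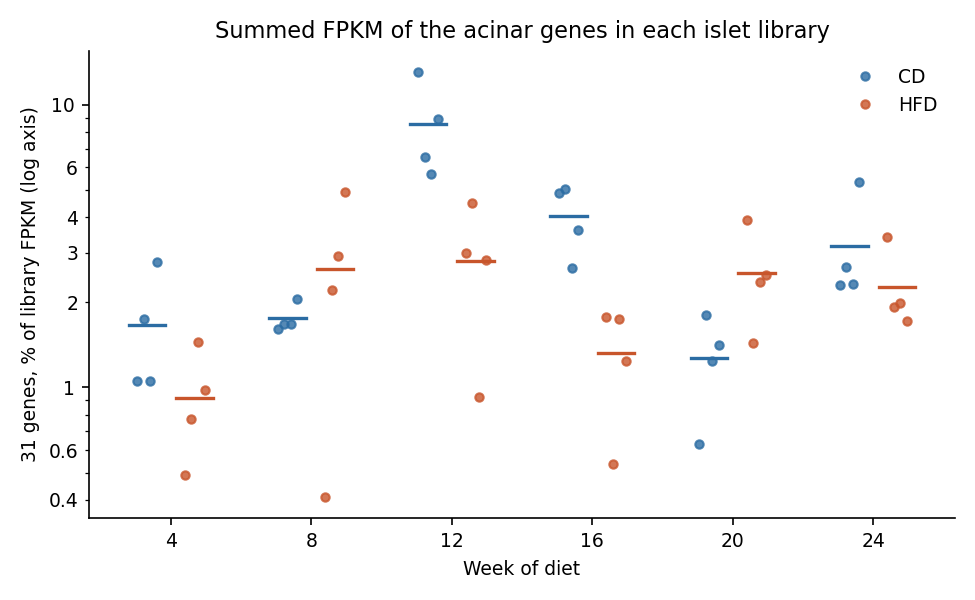
Summed FPKM of the 31 acinar genes as a percentage of all FPKM in each of the 48 islet libraries (log axis) by week of diet, with points for mice and bars for the mean of 4 mice. The CD mean was 8.54% at week 12 and 1.28% at week 20, and the HFD means lay between 0.921% and 2.80%.

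Endocrine markers also differed between the diets, and their part in the acinar differences was not tested. Insulin transcripts took 57.0% of islet FPKM in CD and 69.6% in HFD at week 12, and 62.6% and 70.8% at week 16. At week 16 alpha cell markers (4 of 4) and delta cell markers (3 of 3) were lower in HFD, and 5 of 8 beta cell markers were higher. At that week 8.45% of all genes tested were called in either direction, by the limma comparison described below (adjusted p under 0.05). At week 20 the insulin share was 64.3% in CD and 64.6% in HFD, while the summed alpha cell markers were 10009 and 2797 FPKM and the summed delta cell markers 3868 and 968 FPKM. The summed alpha and delta cell markers were thus lower on HFD at week 20, where the insulin share was nearly equal between the diets. The summed ductal markers ran from 248 to 964 FPKM, highest in CD304, although Sox9, Cftr and Onecut1, which define duct cells, did not reach 1 FPKM in any islet library. FPKM of a gene is relative to all others in its library, so a larger insulin share lowers the rest.

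The acinar genes varied together between mice of the same group. After subtracting the mean of each diet and week, log2(FPKM + 1) of 26 of 27 genes correlated with Cpa1 over the 48 islet libraries (permutation test within groups, adjusted p under 0.05 for Pearson's r and Spearman's rho, 27 relations), with 23 above r = 0.9 and a median r of 0.977. Genes outside the list were not tested for correlation with Cpa1, so the share over all genes is unknown. The carboxypeptidase Cpb1 was closest to Cpa1 (r = 0.994, rho = 0.991, permutation p = 1e-05, the smallest that 100000 resamples can give, adjusted p = 1.08e-05). The bile salt-dependent lipase Cel and Prss2 followed, both at r = 0.993 (rho = 0.991 and 0.987). Prss3 (r = 0.509, rho = 0.507, permutation p = 0.00139 and 0.00132, adjusted p = 0.00144 and 0.00137) and Bhlha15 (r = 0.282, rho = 0.266, permutation p = 0.0797 and 0.108, adjusted to the same values) had the lowest. Without the libraries of CD304 and HFD211, the 2 farthest from the median of Cpa1, 26 of 27 genes still passed, the median r was 0.964 and that of Bhlha15 was 0.143. Bhlha15 was the factor with the narrowest spread, 2.84-fold between its lowest and highest library against 542-fold for Prss3.

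To ask whether HFD changed the acinar genes, the 4 HFD and 4 CD libraries of each week were compared by limma on log2(FPKM + 1), and a gene was called at an adjusted p under 0.05 over all genes tested. Few members were called in any week. At week 4, 0 of 27 tested genes were called (0% of 11569 genes were), 4 at an unadjusted p under 0.05, with a median log2 fold change of -0.78 against -0.03 over all genes. At week 8, 0 of 28 were called (5.27% of all genes), 0 at an unadjusted p under 0.05, but without the library of HFD211 9 were higher. At week 12, 1 of 29 was called lower (4.53% of all genes), with 21 at an unadjusted p under 0.05. At week 16, 5 of 29 were called lower (8.45%), with 24 at an unadjusted p under 0.05. At week 20, 1 of 28 was called higher (4.74%), with 17 at an unadjusted p under 0.05. At week 24, 0 of 29 were called (8.3% of all genes), and 6 had an unadjusted p under 0.05. The median log2 fold change over the tested members was -1.47 at weeks 12 and 16, 1.07 at week 20 and -0.38 at week 24, against 0.01, 0.01, -0.02 and 0.08 over all genes.

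**Figure D2:**
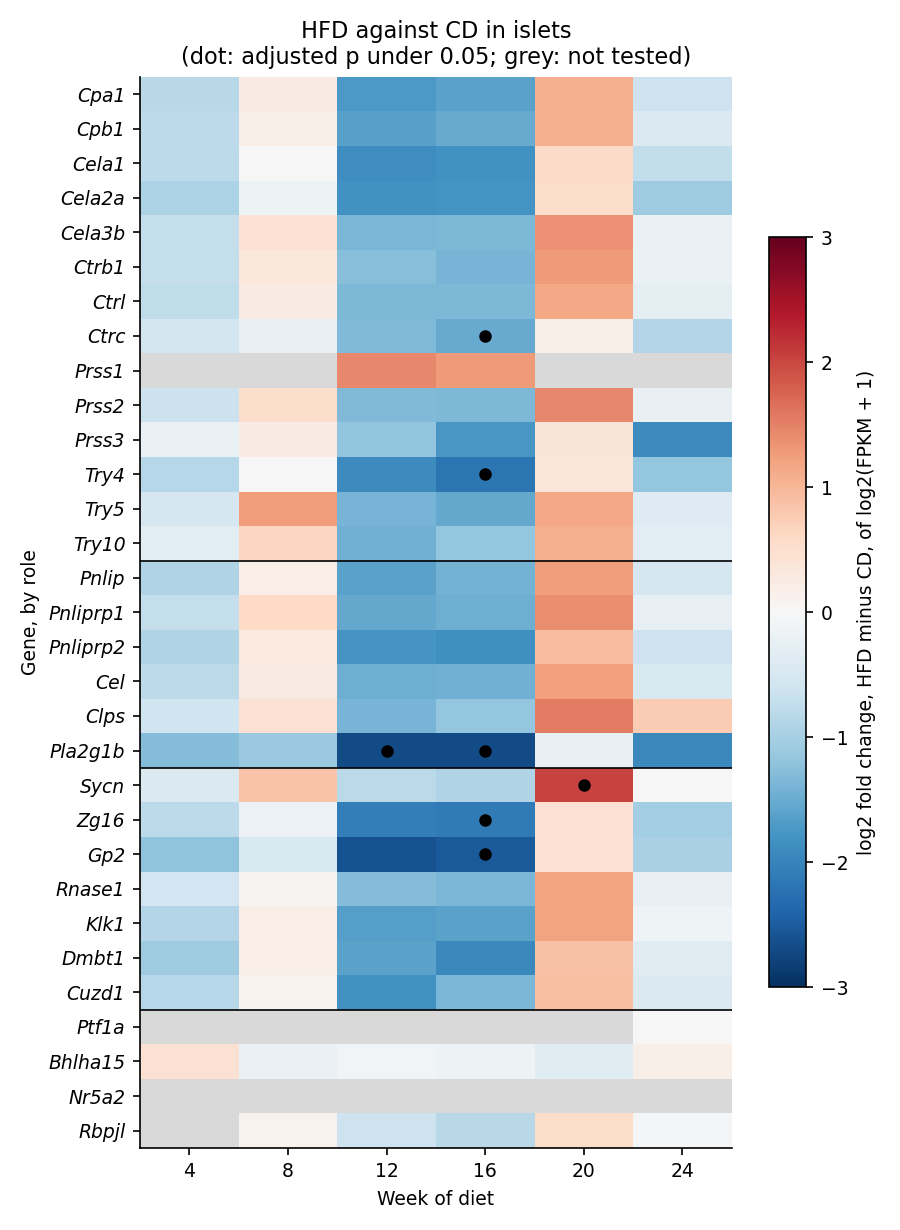
log2 fold change of HFD against CD in islets for each of the 31 genes (rows, grouped by role) and each week (columns), with a dot where limma's adjusted p was under 0.05 and grey where a gene was not tested. Most log2 fold changes were below 0 at weeks 12 and 16 and above 0 at week 20, and 7 fields carry a dot.

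The secreted phospholipase Pla2g1b (chr5:115466241-115474717 in the table), which cuts phospholipids in the gut, was called at weeks 12 and 16. At week 12 it measured 175.6, 182.3, 287.1 and 400.5 FPKM on CD and 15.5, 36.8, 48.6 and 70.4 FPKM on HFD. At week 16 the CD mice had 103.4, 130.4, 166.4 and 172.9 FPKM and the HFD mice 9.95, 22.4, 27.6 and 31.8 FPKM. Every HFD mouse lay below every CD mouse in both weeks, with log2 fold changes of -2.68 (SE 0.52, limma adjusted p = 0.044) and -2.67 (SE 0.38, adjusted p = 0.0093). The call at week 12 was lost without any of 7 of the 8 libraries, all except HFD315. At week 4 the groups did not overlap either, with 48.95, 51.5, 82.9 and 125.4 FPKM on CD against 19.6, 25.7, 33.0 and 38.8 FPKM on HFD, but the adjusted test did not call it.

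Another 4 genes fell at week 16. The zymogen granule glycoprotein Gp2 (chr7:119442542-119459272) had 121.8, 153.4, 207.1 and 223.4 FPKM on CD and 12.0, 32.2, 40.9 and 44.8 FPKM on HFD (log2 fold change -2.52, SE 0.45, limma adjusted p = 0.022). Zg16, a lectin-like granule protein, had 737, 927, 1214 and 1289 FPKM on CD and 106.4, 264.5, 320.8 and 334.9 FPKM on HFD (-2.11, SE 0.42, adjusted p = 0.032). The trypsinogen Try4 had 2254, 2592, 3269 and 3415 FPKM on CD and 276.5, 646.8, 745.5 and 1107 FPKM on HFD (-2.19, SE 0.44, adjusted p = 0.031). Chymotrypsin C (Ctrc), which degrades trypsinogen, had 7.16, 12.2, 13.1 and 13.2 FPKM on CD and 1.41, 3.42, 4.31 and 4.63 FPKM on HFD (-1.52, SE 0.33, adjusted p = 0.038). The diets did not overlap in any of these genes. The number called at week 16 was 1 without CD401, CD403 or CD407, 2 without HFD416 or HFD418, 3 without CD405 and 17 without HFD414. Pla2g1b kept its call at week 16 under each of these removals.

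Most of the remaining members had log2 fold changes below 0 at these weeks without being called. Every HFD value was below every CD value for 17 of 29 tested members at week 12, against 3.47% of all genes tested, and for 24 of 29 at week 16, against 8.77%. Cpa1, which removes C-terminal residues, had 2976, 3683, 4556 and 7699 FPKM on CD and 488, 1465, 1737 and 2608 FPKM on HFD at week 12. Pnlip had 1786, 2193, 3167 and 3167 FPKM on CD and 432, 1074, 1198 and 1373 FPKM on HFD at week 16. Ctrb1 at week 16 ran from 4222 to 8141 FPKM on CD and from 1102 to 3463 FPKM on HFD. Their limma adjusted p-values in these weeks were 0.200, 0.105 and 0.115. The trypsinogen Prss1, which was close to 0 in most islet libraries, had higher values in HFD at week 16. It had 0.62, 0.66, 0.85 and 0.97 FPKM on CD and 1.70, 1.73, 2.35 and 12.8 FPKM on HFD, and was not called. It passed the filter there through its HFD libraries alone, so its inclusion already favoured this direction.

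At week 20 Sycn was higher in HFD. It measured 130.6, 247.4, 322.0 and 329.1 FPKM on CD and 576.4, 933.5, 1092 and 1633 FPKM on HFD, without overlap (log2 fold change 2.03, SE 0.38, limma adjusted p = 0.033). This call was lost without CD502, CD505, CD507, HFD517 or HFD518, and 7 members were called without HFD516. Every HFD mouse was above every CD mouse for 4 of 28 members, Cela3b, Ctrb1, Clps and Sycn, against 4.84% of all genes tested. Ctrb1 had 1158, 2178, 2598 and 2846 FPKM on CD and 2864, 5199, 5407 and 7784 FPKM on HFD, a log2 fold change of 1.27 that was not called. Rnase1 ran from 159.1 to 457.1 FPKM on CD and from 377.4 to 1027 FPKM on HFD, which overlapped.

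Whether the HFD effect differed between the 6 weeks was tested as an F test in a single limma fit of all 48 islet libraries, added after the data had been seen. It called 3 of 28 members, against 3.47% of all genes tested, with 26 at an unadjusted p under 0.05. They were Try5 (F = 5.64, adjusted p = 0.0293), the kallikrein Klk1 (F = 4.88, adjusted p = 0.0486) and Sycn (F = 4.88, adjusted p = 0.0487). For Try5, a trypsinogen, the CD mice of week 8 had 335.9, 378.5, 445.3 and 518.2 FPKM and the HFD mice 258.4, 1525, 1528 and 1536 FPKM. At week 16 the same gene had 1200, 1658, 1993 and 2083 FPKM on CD and 258.9, 613.6, 747.9 and 993.0 FPKM on HFD. At week 8, 3 HFD mice were above all CD mice, and at week 16 all HFD mice were below. Klk1, a serine protease of glandular cells, had 267.5, 314.8, 456.7 and 467.2 FPKM on CD and 54.9, 128.7, 164.3 and 170.6 FPKM on HFD at week 16. At week 20 it had 41.2, 78.5, 96.4 and 123.1 FPKM on CD and 111.1, 201.3, 211.1 and 234.3 FPKM on HFD. These calls were not stable. The count was 0 without CD501, HFD212 or HFD213, 1 with a pseudocount of 0.1 or with median ratio scaling, and 24 of 28 without HFD211, whose acinar share was the lowest of all. The planned contrast of late weeks (16, 20 and 24) minus early weeks (4, 8 and 12) called 0 of 28 members, and 0 at an unadjusted p under 0.05, against 2.63% of all genes called.

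Averaged over the 6 weeks, 12 of 28 tested members were lower on HFD and 0 higher, against 37.8% of all genes called in either direction (median log2 fold change -0.49 for members and -0.01 for all genes). By role these were 6 of 13 proteases, 2 of 6 fat-digesting proteins, 4 of 7 other secreted or membrane proteins and 0 of 2 factors. The share of members called was thus close to that of all genes called in either direction. Every called member was lower, whereas of 11556 genes tested 2418 were called lower and 1951 higher. Most members varied together between mice, so the shared direction of the 12 does not count as 12 separate observations.

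Pla2g1b fell most. Its lowest, median and highest values over 24 mice were 22.4, 92.3 and 400.5 FPKM on CD and 5.93, 32.4 and 85.1 FPKM on HFD (log2 fold change -1.65, SE 0.21, limma adjusted p = 8.5e-08). Gp2 had 20.1, 105.0 and 599.1 FPKM on CD and 7.80, 46.8 and 125.1 FPKM on HFD (-1.22, SE 0.23, adjusted p = 7.1e-05). Try4 had 360.9, 1661 and 5936 FPKM on CD and 250.9, 796.2 and 1968 FPKM on HFD (-0.96, SE 0.20, adjusted p = 0.00029). Diets overlapped widely in all 3 genes when weeks were pooled. Zg16 had medians of 591.6 and 340.7 FPKM (-0.95, SE 0.22, adjusted p = 0.00087), and the elastase Cela2a, which cuts after hydrophobic residues, had medians of 3164 and 1922 FPKM (-0.87, SE 0.21, adjusted p = 0.0017).

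The other 7 called genes changed less, with log2 fold changes from -0.77 to -0.58 and limma adjusted p-values from 0.00093 to 0.046. Their medians on CD and HFD were 1609 and 1060 FPKM for the elastase family member Cela1, 7.32 and 4.34 FPKM for Ctrc and 1271 and 990.2 FPKM for Cpa1. They were 35.8 and 18.2 FPKM for the trypsinogen Prss3, and 104.4 and 70.0 FPKM for the lipase-related protein Pnliprp2. They were 100.2 and 71.6 FPKM for Dmbt1, a mucosal scavenger receptor-like glycoprotein, and 20.5 and 15.04 FPKM for Cuzd1, a zymogen granule membrane protein. Without the week 12 libraries, an alternative chosen after seeing the data, 6 members were called lower. Cela1, Cpa1, Prss3, Pnliprp2, Dmbt1 and Cuzd1 then lost their call. Among the 16 members not called, Sycn (log2 fold change 0.13) was the one above 0.

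Since nearly all members followed Cpa1, the diets were also compared relative to it. This alternative was added after the data had been seen, in 2 forms. In the first, log2 Cpa1 of each library was a covariate in the limma fit, which estimates diet differences at equal Cpa1. At week 12 Cpa1 ran from 2976 to 7699 FPKM on CD and from 488 to 2608 FPKM on HFD. At week 16 it ran from 1382 to 2823 FPKM on CD and from 313 to 994 FPKM on HFD. The diets did not overlap in these weeks, so the estimate there relies on the fitted slope on Cpa1. In the second, the FPKM of each gene was divided by that of Cpa1 in the same library, a ratio that does not depend on the library total. Cpa1 is itself a member that was lower on HFD, so both forms describe composition relative to it. Most members follow Cpa1 between mice, and both forms remove the spread that they share with it. A gene that does not follow Cpa1 carries the spread of Cpa1 in its ratio. Shares over all genes in these 2 forms are therefore not a like comparison for the members.

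At equal Cpa1, 19 of 27 members were called different between the diets, 11 higher and 8 lower on HFD, against 33.4% of all genes. Among 12 proteases, 6 were higher (Prss2, Try5, Try10, Cela3b, Ctrb1 and Ctrl) and 4 lower (Try4, Cela2a, Cela1 and Ctrc). In fat digestion, 3 were higher (Clps, Pnliprp1 and Cel) and 2 lower (Pla2g1b and Pnliprp2). In the third group Sycn and Rnase1 were higher and Gp2 and Zg16 lower, and 0 of 2 factors were called. Without week 12 the count was again 19, with 11 higher and 8 lower. With Pnlip as the reference gene in place of Cpa1, 15 members were called, and Ctrb1, Try5, Pnliprp1, Cel and Rnase1 were not among them.

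**Figure D3:**
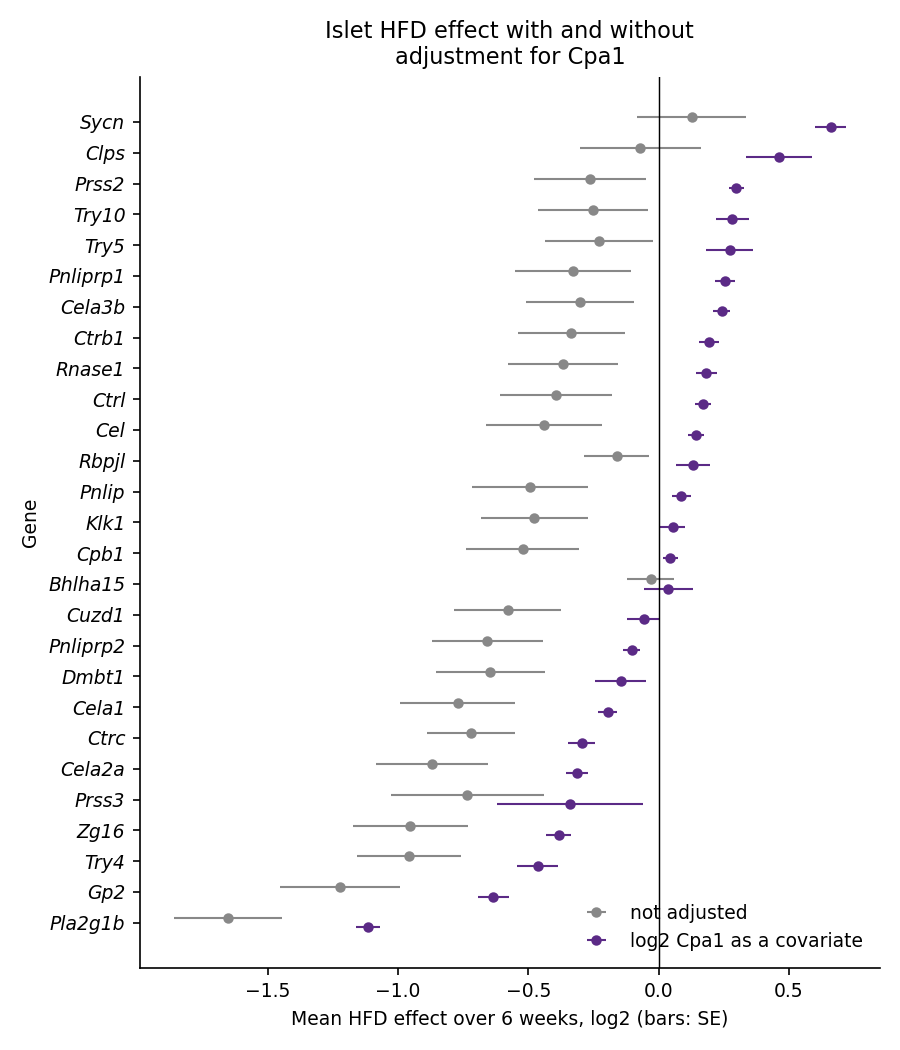
Mean HFD effect over the 6 weeks on log2(FPKM + 1) in islets for 27 genes, with bars for the standard error, from the fit without (grey) and with log2 Cpa1 as a covariate (purple). With the covariate, Pla2g1b stands at -1.12 and Gp2 at -0.63, and Sycn at 0.66 stands at the other end.

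Pla2g1b had the largest decrease at equal Cpa1 (log2 -1.12, SE 0.05, limma adjusted p = 3.2e-22). Relative to Cpa1 it ranged over 4 mice from 0.0793 to 0.0939 on CD and from 0.0499 to 0.0766 on HFD at week 4. It ranged from 0.0677 to 0.0812 and from 0.0262 to 0.0312 at week 8, and from 0.0495 to 0.0630 and from 0.0251 to 0.0318 at week 12. It ranged from 0.0590 to 0.0748 and from 0.0278 to 0.0335 at week 16. The ranges were 0.0620 to 0.0863 and 0.0290 to 0.0334 at week 20, and 0.0625 to 0.0759 and 0.0220 to 0.0326 at week 24. Every HFD mouse was below every CD mouse in all 6 weeks, which held for 0.0173% of 11555 genes, Pla2g1b and the amylase Amy2a5. The HFD mean was 0.708 of the CD mean at week 4 and between 0.379 and 0.500 later.

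Gp2 fell at equal Cpa1 by 0.63 on the log2 scale (SE 0.06, limma adjusted p = 5.9e-11). Its ratio to Cpa1 was lower in every HFD mouse than in every CD mouse in 5 of 6 weeks. The exception was week 24, where 3 HFD mice lay between 0.0478 and 0.0606 and HFD614 at 0.105, above the CD mice at 0.0766 to 0.0825. Zg16 fell by 0.38 (SE 0.05, adjusted p = 6.5e-08), without overlap in 5 weeks. Try4 fell by 0.46 (SE 0.08, adjusted p = 1.8e-05) and Cela2a by 0.31 (SE 0.04, adjusted p = 1.6e-07), without overlap in 3 and 4 weeks. In all, 4 of 27 members had every HFD mouse below every CD mouse in at least 4 weeks, against 0.0865% of all genes, which is 10 genes. This share is not a like comparison, because genes that do not follow Cpa1 carry its spread in their ratios.

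Sycn had the largest increase at equal Cpa1 (0.66, SE 0.06, limma adjusted p = 1.5e-11). Its ratio to Cpa1 ran from 0.339 to 0.383 on CD and from 0.633 to 0.742 on HFD at week 12, and from 0.372 to 0.493 and from 0.774 to 0.925 at week 20. The HFD mean was between 1.32 and 1.94 of the CD mean in the 6 weeks, and the diets overlapped at weeks 4 and 24. Clps, the colipase that anchors Pnlip to fat droplets, was higher by 0.46 (SE 0.13, adjusted p = 0.0053). Prss2 was higher by 0.30 (SE 0.03, adjusted p = 4.8e-11), and its ratio was above that of all CD mice in every HFD mouse in 5 of 6 weeks. Cela3b was higher by 0.24 (adjusted p = 1.2e-07) and Pnliprp1, a lipase-related protein with little lipase activity, by 0.25 (adjusted p = 1.4e-06). For these 3 genes and Sycn, every HFD mouse was above every CD mouse in at least 4 weeks, which held for 0.104% of all genes, 12 in number.

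**Figure D4:**
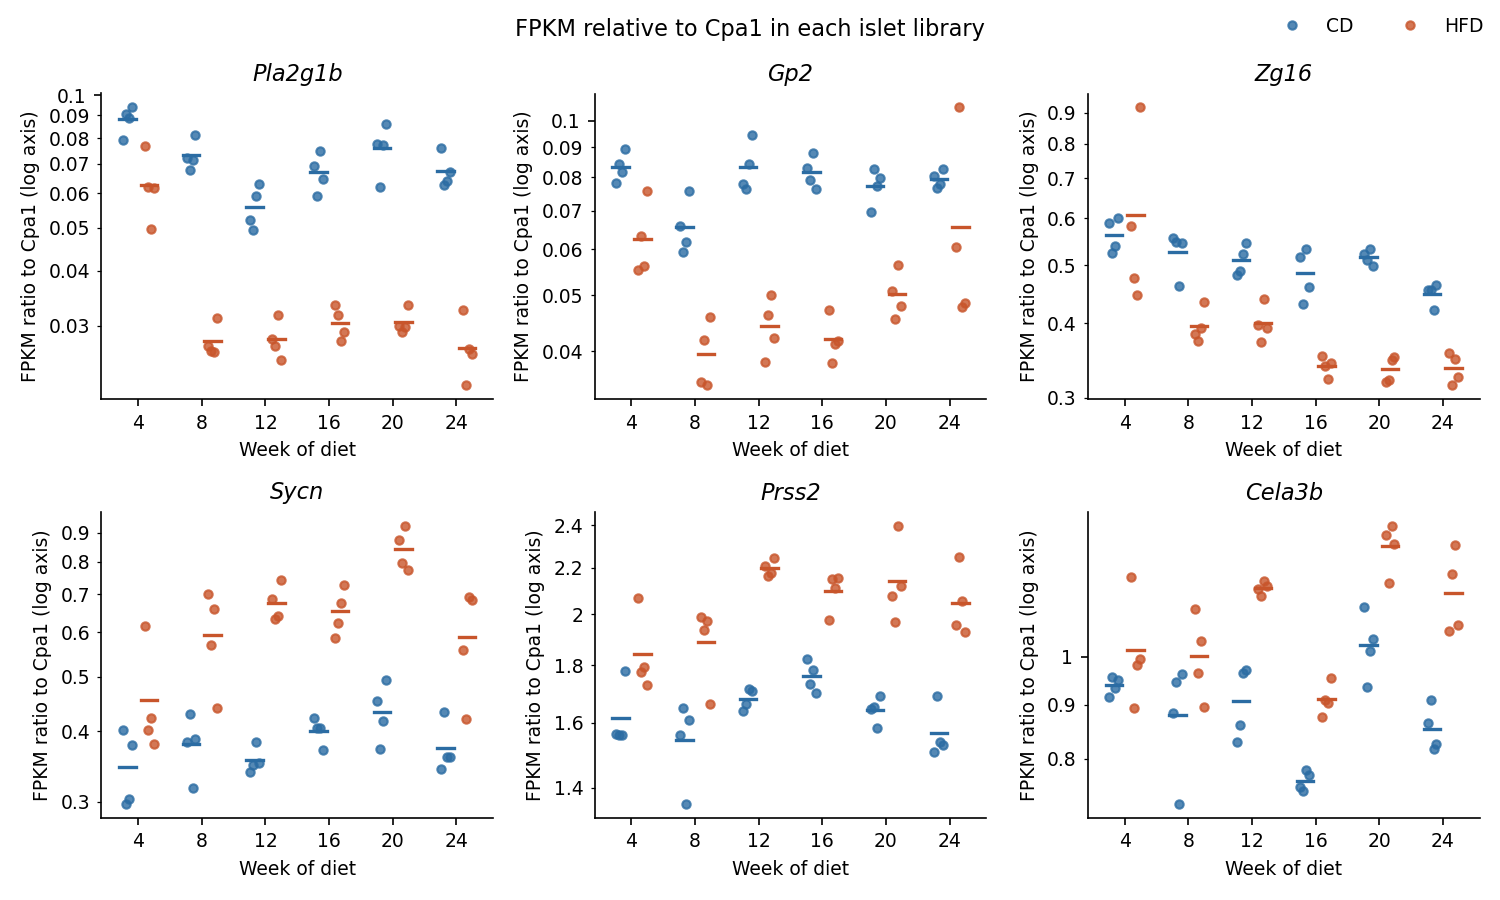
FPKM of Pla2g1b, Gp2, Zg16, Sycn, Prss2 and Cela3b divided by FPKM of Cpa1 in each islet library (log axes) by week, with points for mice and bars for the mean of 4 mice. Pla2g1b was lower in HFD in all 6 weeks and Sycn, Prss2 and Cela3b had higher HFD means in all 6 weeks.

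Members of a single family thus had opposite signs relative to Cpa1, as for Cela2a and Cela3b among the elastases and for Try4 and Prss2 among the trypsinogens. For the trypsinogens the values are uncertain, because they lie in a cluster on chromosome 6 with similar transcripts. In the table, Prss2 (41302272 to 41525079) starts at the same base as Try4 (41302272 to 41305533), and Prss3 (41311232 to 41377613) at the same base as Try5 (41311232 to 41394818). Aligned transcripts were identical at 89.8% of bases for Prss2 and Try4, with 35 windows of 50 bases in common, and at 97.1% for Try4 and Try5, 96.1% for Prss1 and Prss3 and 91.1% for Prss3 and Try5. The submitters' processing notes name RSEM, which divides reads that match several genes by estimation.

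The sequences before the start of 2 genes that were higher and 2 that were lower at equal Cpa1 are shown because the pairs differed in direction, and the letters searched are those that PTF1 and RBPJ proteins are known to bind. They are RefSeq sequences of GRCm38.p6, written 5′ to 3′ on the coding strand and ending at the base before the annotated start, with capitals for matches on either strand to the E-box CACCTG or the RBPJ core TGGGAA. Prss2 (chr6:41521601-41521775, plus strand) and Sycn (chr7:28540710-28540884, plus strand) were higher, and Cela2a (chr4:141826006-141826180, minus strand) and Gp2 (chr7:119459273-119459447, minus strand) were lower.
Prss2: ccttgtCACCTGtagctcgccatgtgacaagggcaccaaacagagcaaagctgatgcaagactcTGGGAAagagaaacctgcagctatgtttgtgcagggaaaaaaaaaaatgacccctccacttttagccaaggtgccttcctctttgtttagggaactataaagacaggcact
Sycn: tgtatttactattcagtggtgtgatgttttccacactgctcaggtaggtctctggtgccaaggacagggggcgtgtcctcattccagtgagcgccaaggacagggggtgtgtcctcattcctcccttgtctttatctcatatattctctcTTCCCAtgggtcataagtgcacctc
Cela2a: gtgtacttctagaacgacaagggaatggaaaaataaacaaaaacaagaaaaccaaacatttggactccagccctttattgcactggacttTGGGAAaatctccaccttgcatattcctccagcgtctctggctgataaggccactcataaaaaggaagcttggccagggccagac
Gp2: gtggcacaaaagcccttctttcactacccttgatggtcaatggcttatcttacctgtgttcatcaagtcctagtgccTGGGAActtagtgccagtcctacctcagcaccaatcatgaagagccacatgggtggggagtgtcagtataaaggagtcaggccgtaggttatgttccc

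All 4 windows hold the RBPJ core, and in Prss2 an E-box stands before it, starting 169 bases before the start. The expression table starts Prss2 at the first base of Try4, far before this window. The window may therefore not be the promoter behind the measured Prss2 values. RefSeq promoters of 250 bases were matched for 25 of 31 members. The E-box was found in 15 of 25 (60.0%), against 19.4% of 27025 genes, and the RBPJ core in 15 of 25 (60.0%), against 24.1%. Both motifs were found in 7 members (28.0%), Cel, Cela2a, Ctrl, Klk1, Prss1, Prss2 and Rbpjl, against 4.54% of genes. Cuzd1 and Pla2g1b had neither in this window, but the RefSeq start of Pla2g1b lies before that of the expression table, and the window may not be its promoter. The NR5A2 binding letters CAAGGTCA was found in 2 members (8.0%), Cel and Klk1, against 1.51% of genes. CAGGTG, the E-box on the other strand, and TGGGAA can share their end letters TG, and a match is a description of letters only.

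Differences between the CD weeks were widespread among all genes. All 28 tested members differed between the CD weeks (F test, limma adjusted p under 0.05), against 79.1% of all genes. At equal Cpa1, 20 of 27 did, a share close to the 73.1% of all genes. Clps (F = 58.3, adjusted p = 3.7e-14), Cela1 (F = 19.4, adjusted p = 5.5e-09) and Pnlip (F = 16.8, adjusted p = 3.4e-08) had the highest F, followed by Try5 (F = 13.5, adjusted p = 9.3e-07) and Prss3 (F = 11.5, adjusted p = 5.4e-06).

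Week 12 stood apart for Prss3 and Clps in both diets, and Try5 was low there. Prss3 measured 922.6, 989.3, 1651 and 1848 FPKM on CD and 272.3, 395.3, 763.5 and 1263 FPKM on HFD at week 12, and between 3.41 and 140.5 FPKM in the other 40 islet libraries. Its ratio to Cpa1 was 0.214 to 0.558 in the 8 libraries of week 12 and 0.00623 to 0.116 in the other 40. Clps measured 2224, 2694, 3132 and 5847 FPKM on CD and 441.3, 1441, 1606 and 2174 FPKM on HFD at week 12. At week 16 it was 33.6, 63.9, 96.6 and 100.5 FPKM on CD and 10.6, 28.0, 50.02 and 50.4 FPKM on HFD. Its ratio to Cpa1 was 0.687 to 0.984 at week 12 and 0.0243 to 0.644 in the other weeks. Try5 moved the other way, with a ratio of 0.229 to 0.386 at week 12 and 0.343 to 1.35 in the other weeks, which overlapped, and medians of 0.320 and 0.779. The sum of Prss3 and Try5, which share a start in the table, had a ratio of 0.443 to 0.930 at week 12 within the 0.362 to 1.44 of the other weeks. These 3 genes were picked out after their values had been seen.

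**Figure D5:**
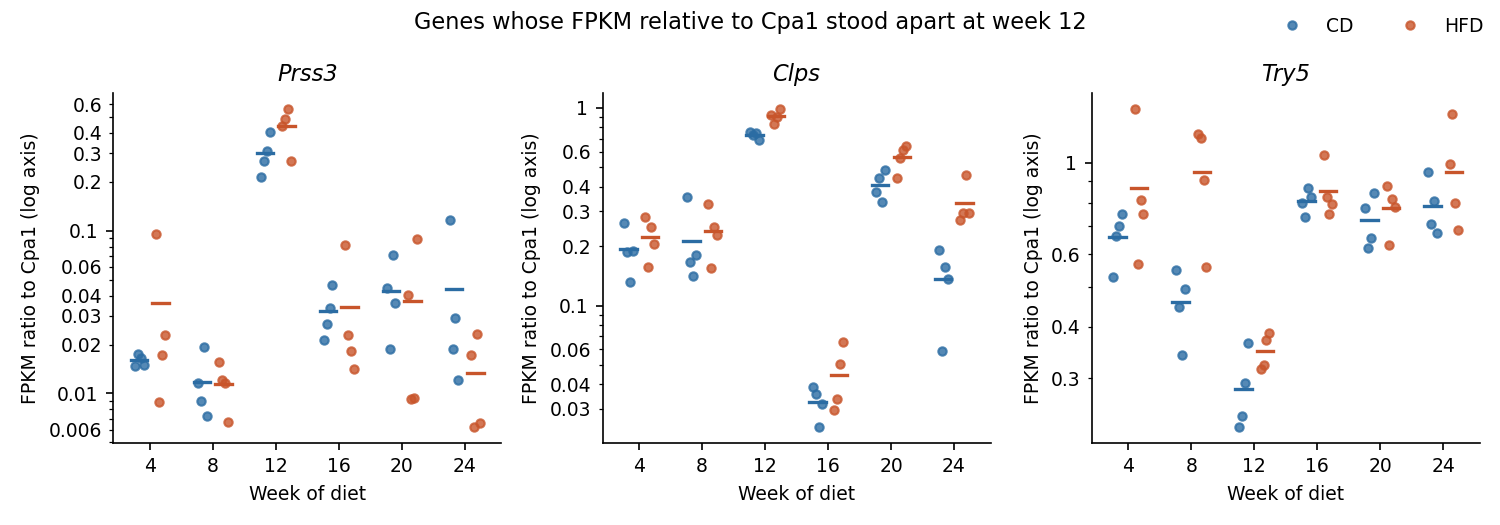
FPKM of Prss3, Clps and Try5 divided by FPKM of Cpa1 in each islet library (log axes) by week, with points for mice and bars for the mean of 4 mice. Prss3 and Clps are highest at week 12 in both diets, and Try5 has its lowest means there.

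The transcription factors differed among themselves. Bhlha15 was not called in any weekly comparison. Its CD values were 19.8, 19.9, 20.1 and 34.5 FPKM at week 12, where enzyme levels were highest, and 18.5, 22.8, 28.2 and 36.7 FPKM at week 20, where they were low. Its mean HFD effect was -0.03 (SE 0.09, limma adjusted p = 0.81). Rbpjl correlated with Cpa1 (r = 0.879, rho = 0.874, permutation p = 1e-05, adjusted p = 1.08e-05), with 1.93, 2.15, 3.77 and 4.26 FPKM on CD and 0.46, 1.24, 1.44 and 1.89 FPKM on HFD at week 16. Ptf1a reached 1 FPKM in 13 islet libraries and Nr5a2 in 3, so both were left out of the pooled fit. Nr5a2 had 0.92, 0.99, 1.27 and 1.30 FPKM on CD and 0.38, 0.38, 0.49 and 0.50 FPKM on HFD at week 16, without overlap and without a test.

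Other acinar genes were described from a separate list of 21, of which 20 were in the table and 18 were tested. Its summed FPKM ran from 464 to 3466 in islet libraries and from 647 to 4095 in liver libraries. The list is therefore not specific to acinar cells, and the cells behind its changes were not tested. Averaged over the weeks, 13 of 18 were called, against 37.8% of all genes, and 10 were lower in HFD, including the disulfide isomerase Pdia2 (-0.91), the trypsin inhibitor Spink1 and the cholecystokinin receptor Cckar. The 3 that were higher were Fkbp11 (0.32), Rab3d (0.13), a small GTPase of the granules, and Xbp1 (0.08), a factor of the unfolded protein response. At week 16, 7 of the list were lower, against 8.45% of all genes called, with Tff2 (-1.87), Pdia2 (-1.68) and Cckar (-1.47) among them. At equal Cpa1, 11 were called, against 33.4% of all genes, 4 higher and 7 lower. The summed amylases relative to the 31 genes were lower in every HFD mouse than in every CD mouse of the same week in all 6 weeks. Their mean ratio was 0.667 ± 0.0384 (SD, n = 4) on CD and 0.316 ± 0.0299 (SD, n = 4) on HFD at week 16.

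In the liver of the same mice, a tissue without acinar cells, 29 of 31 members had a median under 1 FPKM and 15 a median of 0. The exceptions were Cela1, with a median of 20.6 FPKM, and Nr5a2, which also regulates hepatic bile acid and cholesterol genes, at 12.5 FPKM. Neither of these 2 tested members was called for the mean HFD effect (limma adjusted p = 0.18 for Cela1, log2 -0.25, and 0.76 for Nr5a2, log2 0.03), with 0 at an unadjusted p under 0.05, against 41.3% of all genes called. The average hides weeks of opposite direction for Cela1, which were not tested singly. At week 4 it had 22.9, 25.8, 26.8 and 33.7 FPKM on CD and 54.8, 57.2, 67.6 and 67.9 FPKM on HFD, without overlap. At week 20 it had 17.8, 30.8, 37.0 and 37.5 FPKM on CD and 10.96, 13.04, 16.4 and 20.2 FPKM on HFD, which overlapped. Cpa1 reached 1 FPKM in 5 of 48 liver libraries.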

How the data were processed

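RNA from islets and liver of 48 mice was sequenced after poly(A) selection and priming with random hexamers on a BGISEQ-500. The authors deposited FPKM per gene and library, rounded to 2 decimals. The submitters' processing notes name HISAT2 2.0.4, Bowtie2 2.2.5, RSEM 1.1.12, DESeq2 and GRCm38.p5. Group means, log2 ratios, p-values, q-values and modules of the authors were not used.

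FPKM were analysed as log2(FPKM + 1) with limma 3.58.1 in R 4.3.3, with trend and robust variances, two-sided tests and Benjamini-Hochberg adjustment over all genes tested, at a threshold of 0.05. Genes with at least 1 FPKM in 4 of 8 libraries (weekly) or 24 of 48 (pooled) were tested. Without read counts, precision rests on the spread between mice. Figures and ratios were made with Python 3.11.15, numpy 2.4.6, pandas 2.3.3, scipy 1.17.1 and matplotlib 3.10.9. The limma step was tested on simulated data in which 200 genes had a log2 change of 1.5, of which 97.5% were called at week 4 (9 others called) and 100% at week 16 (10 others). These shares do not give the power for the acinar members. At week 16 the tested members had a median log2 fold change of -1.47, and 5 of 29 were called. A member that was not called is therefore not shown to be unchanged.

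All 31 members were described, with values in every library for the weeks in which a member was called and for the most abundant member of each role at selected weeks, and ranges or medians for the others. Alternatives were the pseudocount, the filter, the scaling, the variance model, a minimum fold change and leaving out each mouse, and, added after seeing the data, leaving out week 12, the F test between weeks and the comparisons relative to Cpa1 or Pnlip. Members and gene lists were chosen with earlier results of these data known.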

Additional observations from a re-analysis of the deposited data

Results flagged for a closer look

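Values far from the other 3 mice of their group were looked for in 11 measures and 12 groups each, 132 in all, of which 12 stood out. Chance flags about 1 in 20 such groups. Mouse HFD611 of week 24 lay above the other HFD mice in the sum of the 31 genes (36510 FPKM), Cpa1 (1943 FPKM), Pla2g1b (63.3 FPKM), Try4 (1610 FPKM) and Zg16 (693.9 FPKM). On CD, CD608 of week 24 stood out for Pla2g1b (214.4 FPKM), and CD208 of week 8 for Try4 (1284 FPKM) and Zg16 (572.4 FPKM). Prss3 stood out in CD207 of week 8 (18.9 FPKM), CD601 of week 24 (140.5 FPKM) and HFD411 of week 16 (77.4 FPKM), and Bhlha15 in CD304 of week 12 (34.5 FPKM).

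The islet HFD effect differed between weeks for Try5 (limma adjusted p = 0.0293), Klk1 (adjusted p = 0.0486) and Sycn (adjusted p = 0.0487), by the F test of the difference itself. All 3 calls were lost without CD501, HFD212 or HFD213, and 1 call was left with a pseudocount of 0.1 or with median ratio scaling.

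In liver, which has no acinar cells, Ctrb1 was measured in the 5 libraries with at least 1 FPKM of Cpa1. It had 28.8 FPKM in CD306, 21.0 FPKM in HFD616, 11.8 FPKM in CD407, 4.96 FPKM in CD304 and 2.64 FPKM in HFD617. The ratio of Clps to Cpa1 in these libraries was 0.970 in CD306 and 1.16 in CD304, both of week 12, and 0 in CD407 of week 16. In HFD616 of week 24 it was 0.804, and in HFD617 of the same week it was 0. The ratio of Prss3 to Cpa1 was 0.800 in CD306, 0.724 in CD304, 0.793 in HFD616, 0.67 in HFD617 and 0.135 in CD407. Insulin transcripts made 0.556% of the FPKM of CD306, 0.382% of CD407, 0.0565% of CD304, 0.0635% of HFD617 and 0.00224% of HFD616. The source of the liver signal was not tested.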

How the results depend on the processing

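No called value reversed its direction under an alternative of the same comparison. The comparison at equal Cpa1 asks another question, and there Prss2, Try5, Try10, Cela3b, Ctrb1, Ctrl, Clps, Pnliprp1, Cel and Rnase1 were called higher, although their uncalled mean effects without the covariate were below 0. At week 12 (1 member called in the report) the count was 13 with all 12 groups in one fit, 2 without the FPKM filter, 6 with insulin left out of the library total, 2 with array weights and 17 with neither trend nor robust variances. At week 16 (5) the same settings gave 10, 13 and 20 for the first 3 and 24 for the last, and median ratio scaling gave 9. At week 20 (1) array weights gave 9, of which 8 were higher. At week 24 (0) the count was 1 in one fit of 12 groups, without the filter or with array weights, and 3 with neither trend nor robust variances. For HFD effects differing between weeks (3) it was 1 with a pseudocount of 0.1 or median ratio scaling, 22 with insulin left out, 25 with array weights and 12 with neither trend nor robust variances. A minimum log2 fold change of 1 left 2 of 12 for the mean effect and 1 of 19 at equal Cpa1. The mean effect without week 12 gave 6. The liver count was 1 with array weights. The cause was not tested. Leaving insulin out moved the median log2 fold change of all genes by 0.46 at week 12, 0.34 at week 16 and 0.16 for the mean effect.

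Leaving out each mouse in turn gave 0 to 9 calls at week 8, 0 to 3 at week 12, 1 to 17 at week 16, 0 to 7 at week 20, 0 to 2 at week 24 (2 without HFD611) and 0 to 0 at week 4. It gave 10 to 15 for the mean effect, 19 to 21 at equal Cpa1, 0 to 24 for effects differing between weeks (0 without CD501, HFD212 or HFD213, and 7 without HFD315 or HFD516), 27 to 28 for CD weeks, 17 to 22 for CD weeks at equal Cpa1, and 0 in liver and for late minus early weeks. For single genes, 1478 of these values stayed on their side of the threshold and 66 lost the call, and 194 and 15 did so under the other settings. No paired analysis was possible because HFD and CD groups hold different mice whose identifiers are not shared between diets. Without read counts, the sampling error of low values such as Ptf1a, Nr5a2 and Prss1 is unknown.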
